A study of Drosophila melanogaster with 6 samples.

Results

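Cytosolic ribosomal protein transcripts were measured by RNA-seq in unfertilized Drosophila melanogaster eggs whose mothers overexpressed either wild-type MEK (genotype MTD>MEK) or its F53S form (MTD>MEK_F53S). Members were all genes with a symbol of the form RpL, RpS or RpLP followed by a number, plus sta and sop, which is listed as RpS2. This rule gave 92 of 13943 features, 54 named for the large subunit and 38 for the small subunit, and it also takes in relatives whose names end in "like". MEK is the kinase that activates ERK, Dsor1 is its gene in the fly, and F53S is a change found in RASopathies, disorders of overactive RAS and ERK signalling. In both groups MTD-GAL4, a combination of drivers active in the female germline, expressed a construct placed at the same genomic site, and mothers were mated to sterile males. Each of the 6 libraries, 3 per group, came from a pool of about 20 eggs gathered 0 to 30 min after laying, and the submitters call them biological replicates. Each genotype is a separate fly line, so for every gene below what the transgene did and what the line's genetic background did cannot be told apart. The question addressed is which stored maternal transcripts differ when the overexpressed kinase carries the F53S change.

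A cytosolic ribosome is built from ribosomal RNA and a large set of proteins, nearly all of them present once per ribosome. In the ovary the nurse cells make ribosomes and their messages in bulk and pass them to the oocyte, and translation of these messages responds to TOR kinase. In flies, losing a single copy of many of these genes gives the Minute phenotype of slow growth, and several have a paralog that is used mainly in germ cells.

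Libraries held between 37224814 and 48756311 estimated counts. Over all genes, wild-type MEK replicate 1 and MEK F53S replicate 2 stood apart from the other libraries of their groups, with a count difference (chi-square over its degrees of freedom) of 120.33 or more against each partner, where the remaining pair in each group gave 46.4 and 29.6. The 7 matched markers of the female germline summed to 4330 to 5070 CPM (counts scaled to a common library size) with wild-type MEK and to 3610 to 4920 CPM with MEK F53S. Follicle cell and eggshell markers summed to at most 0.265 CPM in any library, with 9 of 11 genes at 0, and testis markers to at most 0.172 CPM, with 8 of 10 at 0. Transcripts encoded in the mitochondrial genome took 7.84% to 10.1% of counts with wild-type MEK, against 4.14% to 5.24% with MEK F53S. The scaling without these transcripts is given with the other scalings.

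Ribosomal protein transcripts varied together from library to library more than they differed between genotypes. They took 3.01%, 3.66% and 3.80% of all estimated counts in the wild-type MEK libraries and 3.96%, 2.83% and 3.84% in the MEK F53S libraries. The groups overlapped, with means of 3.49% ± 0.421 and 3.54% ± 0.621 (SD, n = 3 each). With the transcripts of the mitochondrial genome left out of the total, the means were 3.83% ± 0.470 and 3.72% ± 0.669 (SD, n = 3 each). The low value in each group came from the library that stood apart. Of the 85 members with enough reads to test, 81 lay below their own mean over the 6 libraries in wild-type MEK replicate 1 and 84 did so in MEK F53S replicate 2, against 18 to 29 in the other libraries. Their median deviation was -0.20 and -0.31 on the log2 CPM scale in these libraries. Other genes with transcripts under 1 kb, 858 in number, shifted less, by a median of -0.11 and -0.12. Both subunits were low in these libraries: the large subunit stood at -0.21 and -0.29 and the small subunit at -0.20 and -0.34. In MEK F53S replicates 1 and 3 the members stood at 0.20 and 0.11 and the other genes under 1 kb at 0.19 and 0.17. Other genes with transcripts over 3 kb stood at -0.18 and -0.13 there.

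**Figure D1:**
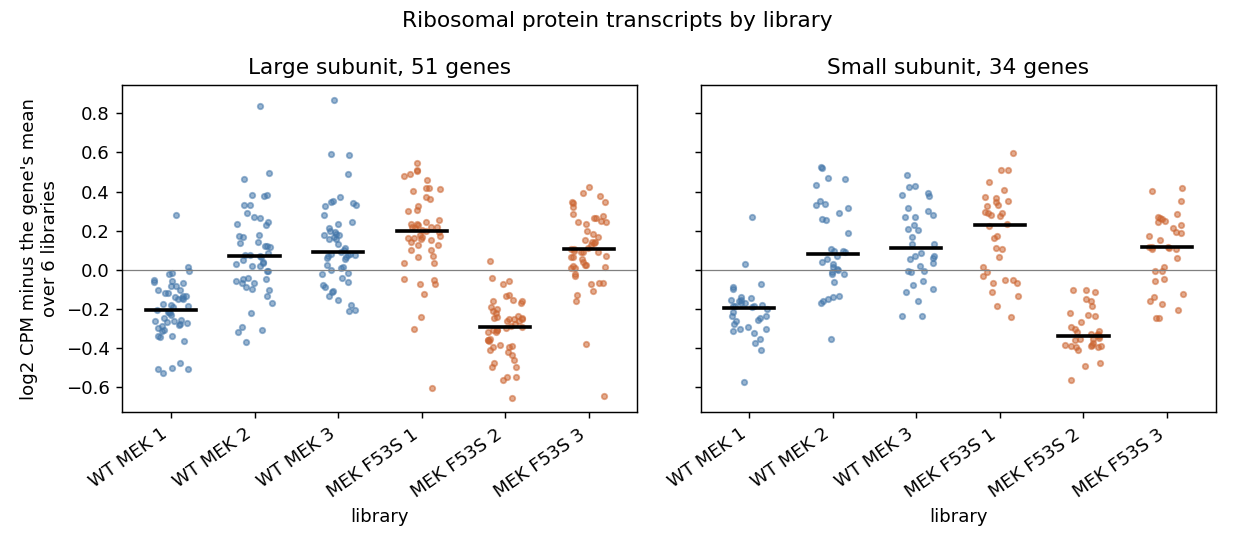
Each point is a tested ribosomal protein gene and gives its log2 CPM in a library minus its mean over the 6 libraries, with black bars at the medians, for 51 large-subunit genes (left) and 34 small-subunit genes (right). Medians lie near -0.2 in wild-type MEK replicate 1 and near -0.3 in MEK F53S replicate 2, and above 0 in the other libraries.

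Between genotypes, most ribosomal protein transcripts did not pass the test, and 7 of the 9 that did were lower with MEK F53S. With edgeR's quasi-likelihood test adjusted over all 7539 genes tested, 2 of the 85 members were called higher and 7 lower, beside a background of 12.3% of all genes called higher and 12.9% lower. Called here means an adjusted p under 0.05. In the large subunit 2 of 51 were called higher and 3 lower. In the small subunit 0 of 34 were called higher and 4 lower by edgeR. At an unadjusted p under 0.05 edgeR gave 2 small-subunit genes higher and 6 lower, DESeq2 called 2 higher after adjustment (15.4% of all genes), and limma on log2(TPM + 1) called 3 (13.9%). The median log2 fold change of MEK F53S over wild-type MEK was 0.04 in each subunit, beside 0.05 for all genes tested. A fitted ratio between 0.8-fold and a rise of 25% was found for 71.8% of the members and for 46.8% of all genes. CPM of the groups did not overlap for 4 members that were higher and 6 that were lower, 10 of 85, beside 21.2% of all genes in each direction and 42.3% in either.

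**Figure D2:**
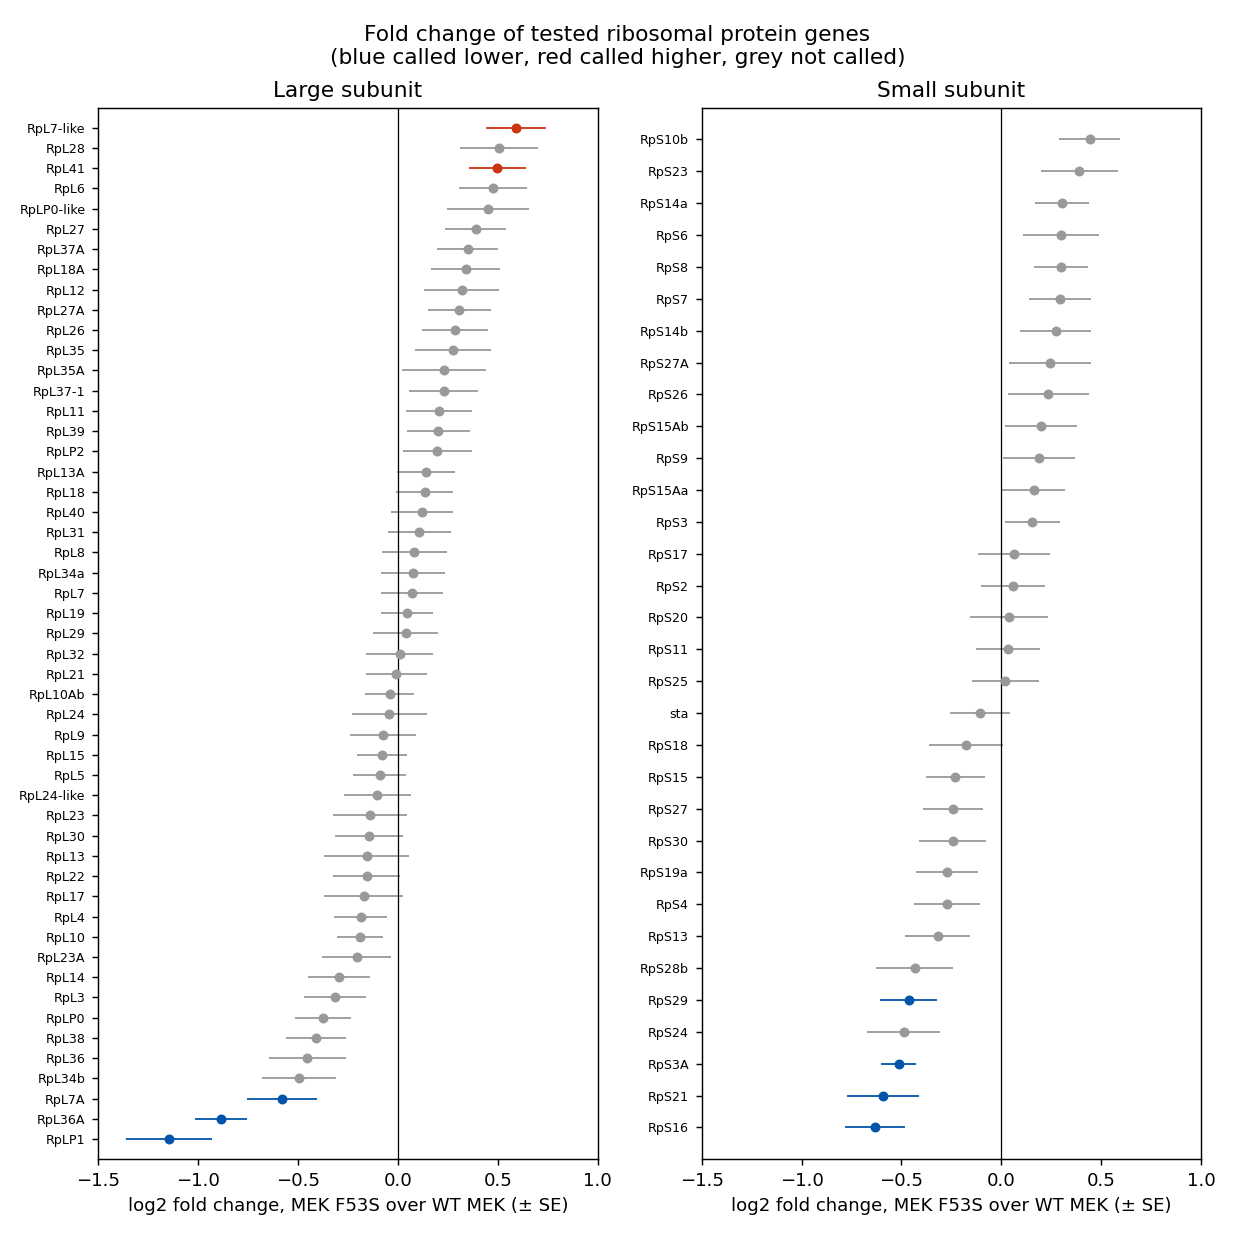
Log2 fold change of MEK F53S over wild-type MEK for 83 tested genes of the large (left) and small (right) subunit, with bars of 1 SE (n = 3 libraries per group). Values run from -1.15 for RpLP1 to 0.59 for RpL7-like, and the 7 genes called lower and 2 called higher are coloured.

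The calls depend on the scaling and on the test. Some scalings left the counts at 2 higher and 7 lower. These were edgeR with RLE size factors (12% and 13.1% of all genes) and TMM without the mitochondrially encoded genes (12.2% and 13%). With library totals alone as the scale, the median of all genes moved from 0.05 to 0.26 and 16 members were called higher and 3 lower, beside 23.6% and 6.7% of all genes. Upper-quartile scaling called 4 in each direction (14.6% and 11.1% of all genes). With another test, DESeq2 called 5 higher and 11 lower (15.4% and 15.9%). On another unit, limma on log2(TPM + 1) called 9 higher and 1 lower (13.9% and 7.59%). With the trend with gene length removed, edgeR called 0 members higher and 28 lower (10.1% and 18.7%). Median log2 fold changes were then -0.26 in the large and -0.27 in the small subunit, beside -0.08 for all genes tested. No called member changed sign under any of these settings.

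The largest difference concerned the stalk of the large subunit, the flexible arm that recruits elongation factors. RpLP1, a stalk protein (2L, 419952 to 420864 in dm6), stood at 2069, 3877 and 3966 CPM with wild-type MEK and at 1429, 1381 and 1667 CPM with MEK F53S. All MEK F53S values lay below all wild-type values, although wild-type MEK replicate 1 was close to them. Its fold change was -1.15 ± 0.21 SE in log2 (edgeR adjusted p = 0.00492), and RpLP1 was called in each of the 6 fits that left out a library. It was not called by limma on log2(TPM + 1), where the difference was -0.81 (adjusted p = 0.0857).

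The partners of RpLP1 in the stalk were not called. RpLP0, which anchors the stalk to the ribosome, stood at 490, 662 and 661 CPM with wild-type MEK and at 484, 410 and 502 CPM with MEK F53S. The groups overlapped through wild-type MEK replicate 1, and the log2 fold change was -0.38 ± 0.14 SE (edgeR adjusted p = 0.0756). RpLP0 was called lower in 7 of 21 alternatives. Among these were DESeq2 (-0.39, adjusted p = 0.0444) and edgeR with the effective length implied by counts and TPM (-0.70, adjusted p = 0.0115). RpLP2, the other acidic stalk protein, gave 129, 134 and 143 CPM with wild-type MEK and 191, 116 and 159 CPM with MEK F53S. Its log2 fold change of 0.20 ± 0.17 SE had the opposite sign to that of RpLP1 and was not called (edgeR adjusted p = 0.437).

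RpL36A, a small basic protein of the large subunit (2L, 8041873 to 8042909), had the smallest adjusted p of the members. Its CPM was 344, 391 and 425 with wild-type MEK, against 230, 216 and 181 with MEK F53S. The gap between the groups was wider than the range within either of them. The log2 fold change was -0.89 ± 0.13 SE (edgeR adjusted p = 0.00156), called in all 6 fits that left out a library and in 20 of 21 alternatives in all. The exception scaled the libraries to the ribosomal protein genes themselves (adjusted p = 0.0638).

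RpL7A, another large-subunit protein (X, 6530897 to 6533348), gave 879, 1271 and 1470 CPM with wild-type MEK and 825, 707 and 892 CPM with MEK F53S. The groups overlapped, since wild-type MEK replicate 1 was below MEK F53S replicate 3. The log2 fold change was -0.58 ± 0.17 SE (edgeR adjusted p = 0.0373), and of the 6 fits that left out a library it was called only in the fit without wild-type MEK replicate 1. It was called in 10 of 21 alternatives in all.

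RpL41, which encodes the shortest ribosomal protein, rose. It stood at 284, 275 and 307 CPM with wild-type MEK and at 485, 328 and 409 CPM with MEK F53S, with no overlap (2R, 24903416 to 24903935). The log2 fold change was 0.50 ± 0.14 SE (edgeR adjusted p = 0.0317), called in 1 of the 6 fits that left out a library, the fit without MEK F53S replicate 2. RpL41 was called in 14 of 21 alternatives in all. With the trend with gene length removed it stood at 0.13 and was not called (edgeR adjusted p = 0.4955). RpL7-like, a relative of RpL7 (2L, 12056326 to 12058251), also rose, from 48.2, 45.4 and 50.8 CPM to 83.4, 60.5 and 73.4 CPM (log2 fold change 0.59 ± 0.15 SE, edgeR adjusted p = 0.0190). It was called in 2 of the 6 fits that left out a library and in 15 of 21 alternatives in all. With the trend with gene length removed it stood at 0.37 (edgeR adjusted p = 0.0699). Of its exon length 98.8% is shared with CG34164 on the same strand, so its value is uncertain.

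In the small subunit the smallest p was that of RpS3A, the only tested member on chromosome 4 (65225 to 67207) and a Minute gene. Its CPM was 4688, 4761 and 4500 with wild-type MEK, against 3287, 3004 and 3487 with MEK F53S. Wild-type MEK replicate 1 sat among its partners for this gene and the groups were far apart. The log2 fold change was -0.51 ± 0.09 SE (edgeR adjusted p = 0.00332), called in all 6 fits that left out a library. It was not called by limma on log2(TPM + 1), with -0.33 (adjusted p = 0.140).

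RpS16, whose tail reaches the tRNA in the ribosome (2R, 22605745 to 22607995), fell as well. It gave 794, 1114 and 1023 CPM with wild-type MEK and 709, 526 and 656 CPM with MEK F53S, with no overlap. On the log2 scale the difference was -0.63 ± 0.15 SE (edgeR adjusted p = 0.0148), and the call was lost without wild-type MEK replicate 2 (-0.55, adjusted p = 0.0575). RpS16 was called in 16 of 21 alternatives in all. Limma on log2(TPM + 1) did not call it (-0.49, adjusted p = 0.079).

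RpS21 and RpS29 also fell, with groups that touched. RpS21, which in flies binds the product of sta (2L, 2856070 to 2857029), stood at 210, 337 and 328 CPM with wild-type MEK and at 206, 167 and 208 CPM with MEK F53S (log2 change of -0.59 ± 0.18 SE, edgeR adjusted p = 0.0397). RpS29, a zinc-binding protein (3R, 9778042 to 9779528), stood at 1054, 1544 and 1383 CPM and at 1038, 874 and 973 CPM (log2 fold change -0.46 ± 0.14 SE, edgeR adjusted p = 0.0390). For both genes the value of wild-type MEK replicate 1 was next to the highest MEK F53S value. Of the 6 fits that left out a library, each was called only in the fit without wild-type MEK replicate 1. RpS21 was called in 8 of 21 alternatives in all. Its difference was -0.17 with the deposited effective length as an offset (edgeR adjusted p = 0.572) and -0.23 with that implied by counts and TPM (edgeR adjusted p = 0.401). By limma on log2(TPM + 1) it was -0.09 (adjusted p = 0.731). RpS29 was called in 10 of 21 alternatives, and limma placed it at -0.37 (adjusted p = 0.129). sta, the fly homologue of the laminin receptor and a small-subunit protein, was not called (-0.11 ± 0.15 SE, edgeR adjusted p = 0.642), nor was sop (0.06 ± 0.16 SE, adjusted p = 0.823).

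**Figure D3:**
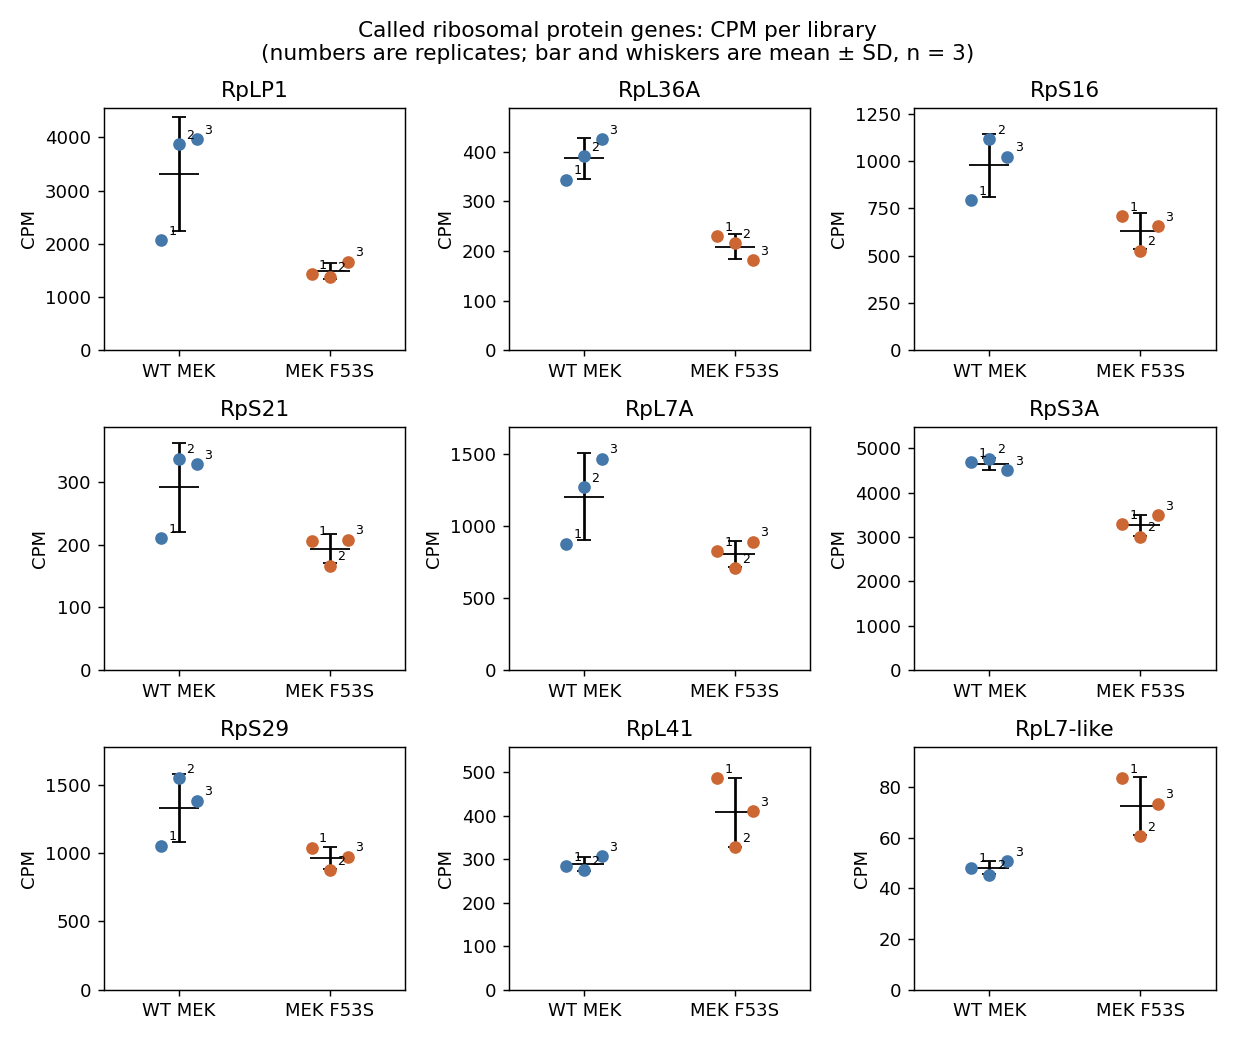
CPM in each library for the 9 called genes, with replicate numbers beside the points and the mean ± SD of 3 libraries per group in black. RpL36A and RpS3A show wide gaps between groups, while wild-type MEK replicate 1 lies next to the MEK F53S values in RpS21, RpS29 and RpL7A.

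Of the 85 tested members, 47 had positive and 38 negative fold changes. Among those not called, the positive ones in the small subunit included RpS10b with 0.44 ± 0.15 SE in log2 (edgeR adjusted p = 0.0589) and RpS23, which acts in decoding, with 0.39 ± 0.19 SE (edgeR adjusted p = 0.168). In the large subunit RpL28 stood at 0.51 ± 0.20 SE (edgeR adjusted p = 0.0847). Uncalled members of similar size on the negative side were RpL36 with -0.45 ± 0.19 SE (edgeR adjusted p = 0.111), RpS28b with -0.43 ± 0.19 SE (edgeR adjusted p = 0.129) and RpL34b.

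Without the 2 libraries that stood apart, the same test on 2 libraries per group called many more members in both directions. It called 24 of 85 higher and 21 lower, 52.9% of the members, beside 23.7% and 23.2% of 7569 genes tested and 47.0% in either direction. In the large subunit 13 were called higher and 11 lower, and in the small subunit 11 higher and 10 lower. All 9 genes called with every library were among the 45. On the higher side RpS10b then had a log2 fold change of 0.53 ± 0.08 SE, RpL6 0.57 ± 0.09 SE and RpS23 0.54 ± 0.10 SE. On the lower side RpLP1 stood at -1.36 ± 0.09 SE, RpS24 at -0.62 ± 0.09 SE, RpL34b at -0.53 ± 0.09 SE and RpLP0 at -0.45 ± 0.07 SE. This exclusion was chosen after the data had been seen, on the distances between libraries over all genes.

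The members can also be set against each other within a library, which takes out the level they share. On log2 CPM relative to the mean of the 85 members in the same library, 30 members had groups that did not overlap and were higher with MEK F53S, and 25 were lower. On this same scale 16.5% of all genes tested were higher and 12.3% lower without overlap, 28.8% in either direction. RpLP1 fell furthest, by 1.08 on the log2 scale, followed by RpL36A (-0.87) and RpS16 (-0.61). RpL7-like gained most (0.59), and RpL28 (0.51) and RpL41 (0.50) were also among the higher members. These are descriptions, since the scale is made from the members. When edgeR used this scale for the fit across all genes, 197 of 7539 genes (2.61%) were called higher and 99 (1.31%) lower, and of the members RpLP1 alone was called (-1.09, adjusted p = 0.0341). That edgeR fit called 0 members higher, and 7 at an unadjusted p under 0.05.

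Levels of the members spanned a wide range, with relatives and minor paralogs among the lowest. As CPM per kilobase of transcript, averaged over the 6 libraries, they ran from 20.9 for RpLP0-like to 4339 for RpS3A. The median was 346 in the large subunit and 379 in the small subunit. RpS3A stood at 5101 ± 147 CPM per kb with wild-type MEK, against 3578 ± 267 with MEK F53S (SD, n = 3). RpLP1 stood at 5487 ± 1777 and 2481 ± 255 CPM per kb, so the order of RpS3A and RpLP1 was not beyond their spread with wild-type MEK. RpL10, among the last proteins to join the large subunit, followed with 2409 ± 271 and 2109 ± 212, and RpS29 with 2333 ± 441 and 1696 ± 130. RpL10 and RpS29 did not differ beyond their spread with wild-type MEK. At the low end after RpLP0-like came RpS15Ab at 22.7, RpL7-like at 64.2, RpL35A at 69.7 and RpS14b at 81.3 CPM per kb.

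Deposited TPM, which divides by Salmon's effective length, ordered the members differently. RpLP1 led with 16569, 27406 and 30378 TPM in wild-type MEK libraries and 12650, 13318 and 15135 TPM with MEK F53S. By mean TPM it was followed by RpL4, RpL7A, RpS16, RpL36 and then RpS3A, while per kilobase of transcript RpL4 ranked 14 of 85. RpL15 ranked 64 by TPM and 21 per kilobase, and RpL38 ranked 52 and 12. Over the 85 genes Spearman's rho between the scales was 0.86, given as a description. Between 5267 and 5767 features per table had a deposited effective length of 201 bases. For the members, the effective length implied by counts and TPM was used. By it 15 to 20 members lay within 1 base of 201 bases in wild-type MEK libraries, against 9 or 10 with MEK F53S. The median implied effective length of the members was 225 to 251 bases with wild-type MEK, against 268 to 280 with MEK F53S. TPM and count differences therefore need not match. Across members the log2 fold change from counts had a Spearman's rho of -0.03 with transcript length and of -0.43 with the wild-type CPM per kilobase, the latter sharing wild-type values with the fold change.

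**Figure D4:**
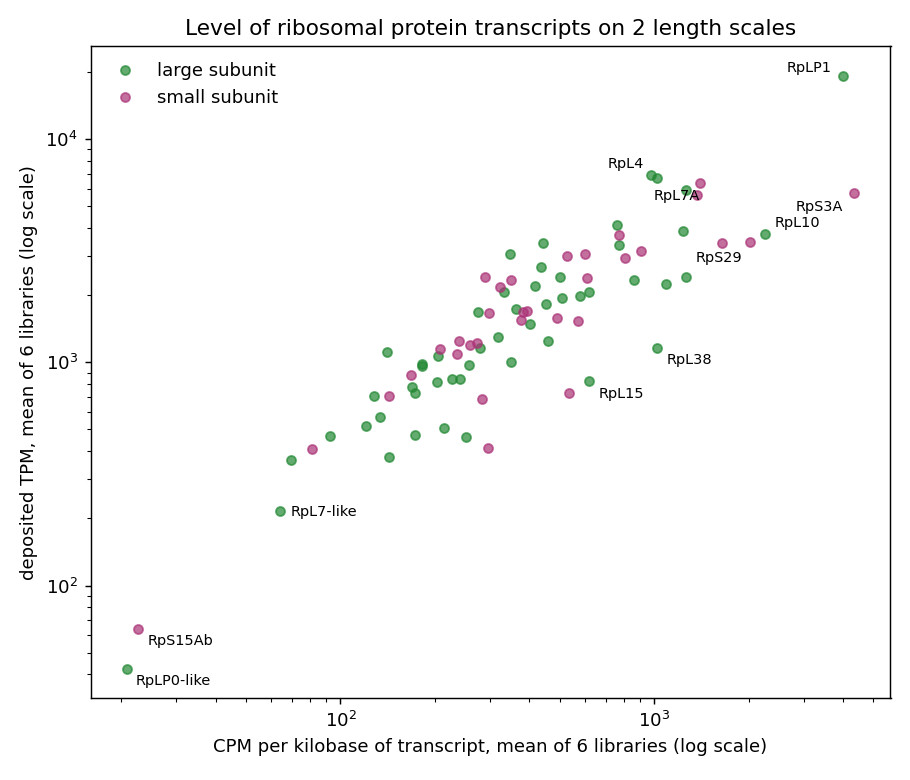
Mean level of 83 tested genes over 6 libraries as CPM per kilobase of transcript (horizontal) and as deposited TPM (vertical), both on log scales. RpS3A and RpLP1 lie at the right end, RpLP0-like and RpS15Ab at the lower left, and RpL15 and RpL38 below the main band.

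Paralogs offer a comparison that does not depend on library scaling. Of 13 pairs of a gene and its relative, 7 had both genes above 0 in every library. With 3 libraries against 3, the two-sided exact permutation test of the log2 ratio cannot give a p below 0.1, and 5 of the 7 pairs reached that value (adjusted over 7 pairs, 0.14). It is reached whenever the groups do not overlap, as they did not by CPM for 42.3% of all single genes tested. On CPM ratios the RpL24 pair did not reach it (exact permutation p = 0.5), and the adjusted p of the rest of the 5 was 0.175.

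RpL34b and RpL34a, paralogs of the large subunit, had a lower ratio with MEK F53S. The ratio of RpL34b to RpL34a was 1.50, 2.11 and 1.59 by TPM with wild-type MEK, against 1.41, 1.43 and 1.43 with MEK F53S. The groups did not overlap, and the mean log2 ratio differed by -0.27 (exact permutation p = 0.1, lower in 3 of 3). Without wild-type MEK replicate 2 the difference was -0.12. By CPM the ratios were 2.29, 3.08 and 2.61 against 1.78, 1.77 and 1.84, a log2 difference of -0.56. RpL34b alone was not called (-0.50 ± 0.18 SE, edgeR adjusted p = 0.0759), and its value depended on the handling of length. DESeq2 called it lower (-0.52, adjusted p = 0.0312). With the deposited effective length as an offset, edgeR gave -0.95 (adjusted p = 0.00718). That length falls short by a factor of 3.99 to 4.0 with wild-type MEK, against 2.06 to 2.31 with MEK F53S. The value of -0.95 carries this unequal shortfall. With the effective length implied by counts and TPM, RpL34b stood at -0.08 (edgeR adjusted p = 0.776), and limma on log2(TPM + 1) placed it at 0.04.

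The gap between the TPM and count ratios of RpL34b goes with a shift in its length (3R, 9400237 to 9401226). Its transcript-weighted length averages its annotated transcripts by their abundance. It was 754 bases in each wild-type MEK library and 680, 684 and 669 bases in the MEK F53S libraries. The groups did not overlap. Lengths in this paragraph are deposited lengths multiplied by the factor by which they fall short in genes with several transcripts. For RpL34b the factor was 4.0, 3.99 and 4.0 with wild-type MEK, against 2.31, 2.21 and 2.06 with MEK F53S. Its uncorrected length was longer with MEK F53S, so the direction rests on this factor. RpL13 was shorter likewise, going from 865, 940 and 903 bases to 810, 827 and 815 bases, and RpL35 from 588, 600 and 598 to 570, 544 and 565 bases. These 3 of 69 members (4.35%) had groups that did not overlap and mean lengths that differed by at least 5%, a share near the 3.37% of the 3296 genes with several transcripts and enough reads. All 3 were shorter with MEK F53S, and neither RpL13 nor RpL35 was called by count, with log2 fold changes of -0.16 ± 0.21 SE and 0.28 ± 0.19 SE (edgeR adjusted p = 0.632 and 0.319).

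RpL7 and RpLP0 also had lower ratios to their relatives with MEK F53S. The ratio of RpL7 to RpL7-like was 4.75, 6.48 and 6.11 by TPM with wild-type MEK, against 3.74, 3.76 and 3.90 with MEK F53S, a log2 difference of -0.59 without overlap (exact permutation p = 0.1). RpL7 itself differed by 0.07 ± 0.15 SE (edgeR adjusted p = 0.772), and the overlap of RpL7-like with CG34164 applies to this ratio too. RpLP0-like is the fly counterpart of a ribosome assembly factor that binds in the place of RpLP0. The ratio of RpLP0 to RpLP0-like was 113, 110 and 126 with wild-type MEK, against 51.3, 67.0 and 52.2 with MEK F53S, a log2 difference of -1.04 (exact permutation p = 0.1), or -0.82 by CPM. The groups were far apart, and RpLP0-like itself stood at 13.6, 19.8 and 16.8 CPM and at 24.2, 18.4 and 26.0 CPM, with overlap.

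RpL24-like is the counterpart of another assembly factor, which is replaced by RpL24 as the large subunit matures. The ratio of RpL24 to RpL24-like was 1.28, 1.16 and 1.19 by TPM with wild-type MEK, against 1.55, 1.31 and 1.70 with MEK F53S, a log2 difference of 0.32 without overlap (exact permutation p = 0.1). By CPM the difference was 0.05 and the groups overlapped, so this result rests on the effective lengths. RpS14a and RpS14b, neighbouring and near-identical copies on X between which reads can be split, kept ratios of 2.14 to 2.21 with wild-type MEK, against 1.87 to 2.45 with MEK F53S (-0.02, exact permutation p = 0.8). RpS15Aa exceeded RpS15Ab 48.5-fold to 59.0-fold with wild-type MEK and 45.3-fold to 56.7-fold with MEK F53S (-0.04, exact permutation p = 0.7). In these 2 pairs the groups overlapped.

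**Figure D5:**
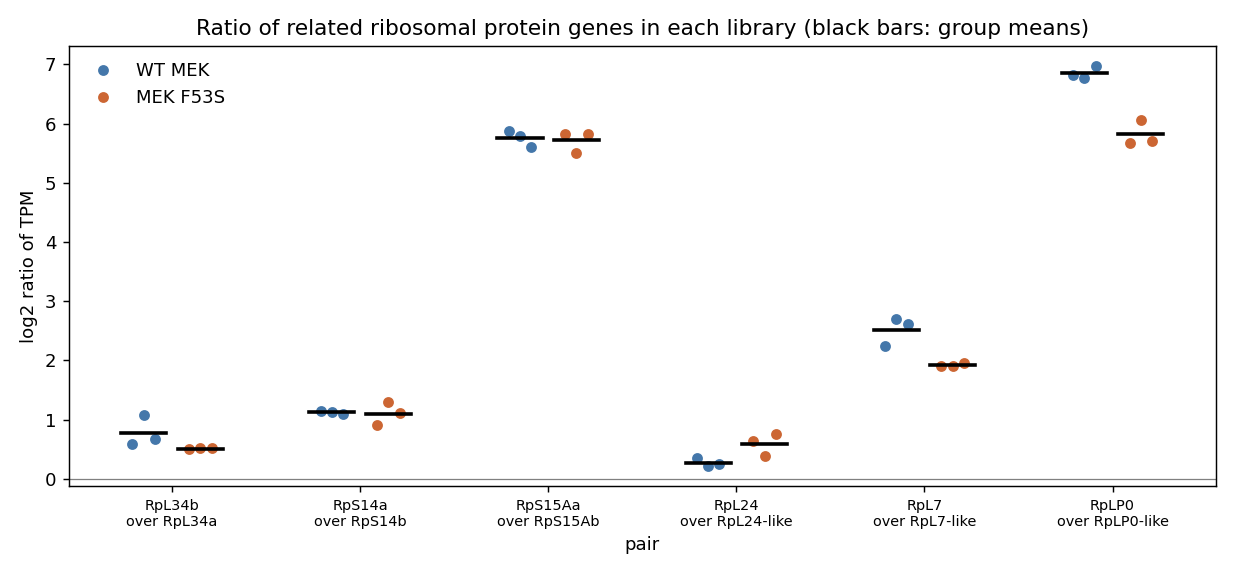
Log2 ratio of deposited TPM in each library for 6 pairs with both genes detected throughout, with wild-type MEK in blue, MEK F53S in orange and black bars at the group means. The groups do not overlap for RpL34, RpL24, RpL7 and RpLP0, and they overlap for RpS14 and RpS15A.

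In the 6 pairs outside those 7 a single gene supplied nearly all reads. RpL10Aa, RpL37-2 and RpS28a had 0 counts in every library, as did RpS28-like, which is in no pair, and a count of 0 allows up to 0.0567 to 0.0881 CPM per library (3 counts, counting error only). RpL22-like, known for its use in the male germline, had 0 counts in each wild-type MEK library and 12, 15 and 9 in the MEK F53S libraries. RpS19b, a germline gene, had 0 counts in each wild-type MEK library and 11, 7 and 0 with MEK F53S. RpS10a had 0, 7 and 3 counts with wild-type MEK and 0 throughout with MEK F53S. These 7 genes did not pass the count filter. Without it the 3 with any counts entered the edgeR test and were not called (adjusted p = 0.135 for RpL22-like, 0.259 for RpS19b and 0.304 for RpS10a), and RpL22-like alone had an unadjusted p under 0.05 (0.0410). RpL22-like made up at most 0.0510% of the counts of its pair. The partners that carried the reads were RpS10b (222 ± 12.3 and 302 ± 61.4 CPM), RpS19a (424 ± 77.9 and 351 ± 45.4), RpS28b (192 ± 46.5 and 142 ± 22.8), RpL22 (899 ± 130 and 806 ± 174), RpL10Ab (305 ± 4.64 and 296 ± 42.4) and RpL37-1 (108 ± 12.8 and 127 ± 28.0), given for wild-type MEK and MEK F53S (SD, n = 3). None of these 6 was called by edgeR with TMM scaling and the count filter. Of 21 alternatives, 8 called RpS10b, 3 RpS19a, 3 RpS28b, 2 RpL37-1, 1 RpL10Ab and 0 RpL22. RpS12 was not analysed here.

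Some members share exons with other genes, which limits their values. RpS9 shares 50.3% of its exon length with a gene on the opposite strand. RpL22 and RpL23A share 34.3% and 31.9% with a noncoding RNA on the same strand. RpL24 shares 21.6% with CG7099 on the opposite strand, which applies to its ratio to RpL24-like too. In pools of whole eggs, fewer eggs that carry a transcript and less transcript per egg cannot be told apart.

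Other genes of translation were compared for context. Of 11 tested elongation and associated factors, 1 was called higher and 1 lower, beside 12.3% and 12.9% of all genes, with a median log2 fold change of -0.05. The lower one was eEF1alpha1, which delivers aminoacyl-tRNA to the ribosome, at 11689, 17486 and 15633 CPM with wild-type MEK and 9971, 9193 and 9674 CPM with MEK F53S (log2 change of -0.64 ± 0.13 SE, edgeR adjusted p = 0.00746). As for RpLP1, the groups did not overlap and wild-type MEK replicate 1 was the lowest of its group. The higher one was eEF1gamma (0.30 ± 0.10 SE, edgeR adjusted p = 0.0494), a call lost with RLE scaling, and eEF1delta (0.43 ± 0.15 SE) and eEF5 (-0.27 ± 0.13 SE) were not called.

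Of 29 genes of the TOR pathway and ribosome production, 6 were called higher and 4 lower (median -0.22), beside 12.3% and 12.9% of all genes. Xrp1, a transcription factor that acts in Minute cells in flies, stood at 4.62, 7.22 and 2.51 CPM with wild-type MEK and at 0.197, 0.495 and 0.322 CPM with MEK F53S (log2 change of -3.80 ± 0.56 SE, edgeR adjusted p = 0.00160). All 3 MEK F53S values were far below the wild-type range. mTor, the kinase itself, and gig, which restrains it as part of the TSC complex, were both lower, by -0.66 ± 0.14 SE and -0.70 ± 0.13 SE (edgeR adjusted p = 0.00895 and 0.00476). mio, a subunit of the GATOR2 complex that activates TOR, was higher (0.79 ± 0.17 SE, adjusted p = 0.00857). Of 72 mitochondrial ribosomal protein genes, 9 were called higher and 1 lower, the former 12.5% of the list beside 12.3% of all genes. Their median was 0.28, beside 0.04 for the cytosolic members. With the trend with gene length removed it was -0.02, beside -0.27 for the cytosolic members and -0.08 for all genes tested. Among the mitochondrial ribosomal protein genes mRpL41, mRpS34 and mRpL38 were higher (1.39 ± 0.24 SE, 1.23 ± 0.27 SE and 0.88 ± 0.18 SE) and mRpL33 lower (-1.06 ± 0.19 SE), all with an edgeR adjusted p of 0.0103 or less.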

How the data were processed

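RNA-seq was analysed from 6 egg libraries. Salmon 0.8.2 and the build dm6 are named in the submitters' processing notes. The annotation, the strand and the bias options were not given in the sources used here. Each deposited table holds a length, an effective length, TPM and an estimated count per gene, per the file headers. The authors' TPM is scaled for effective length, with the same sum in each library. Estimated counts deposited by the authors need not be whole and were rounded. Deposited lengths are in bases. For genes with several transcripts, count, TPM and effective length showed that the deposited lengths fall short by a factor per gene and library (by more than 5% in 90.8% to 92.4% of such genes), while at least 99.8% of genes with 1 transcript had a factor within 0.02 of 1. Lengths were therefore multiplied by that factor.

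Symbols were matched for 13830 of 13943 features. Genes were filtered with filterByExpr (minimum count 10, minimum total 15), which left 7539, and the kept counts were at least 99.9% of each library. After TMM scaling, groups were compared over all genes in edgeR 4.0.16 (R 4.3.3) by its quasi-likelihood test without covariates, and p-values were adjusted with the Benjamini-Hochberg procedure. CPM is TMM-normalised, and SE derives from the F statistic. Pairs were compared by exact permutation over libraries, two-sided. Precision follows from 37224814 to 48756311 counts per library, and floors cover counting error only. Whether replicates came from separate mothers is not stated, so p-values measure the spread between these libraries. Same-numbered libraries did not vary together in all pairs (r = -0.14, -0.13 and 0.19), so numbers were not used to pair them.

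Named genes were every called member, both genes of each pair, sta and sop. Also named were the 5 members with the highest mean TPM and the 3 largest and 3 smallest fold changes in each subunit. In each other list up to 4 genes with the smallest p were named. Genes outside this rule were named after their values were seen (RpLP2, RpL6, RpS24, RpL13, RpL35, RpL10, RpL15, RpL35A, RpL38, RpL23A and RpS28-like). Members and lists were chosen with earlier results of these data known. In the other lists 2 symbols were not matched. Alternatives were other scalings, filters, length offsets, the replicate block, DESeq2 1.42.0, limma 3.58.1 on log2(TPM + 1) and log2(TPM + 0.1), and leaving out libraries. The edgeR script was tested on simulated data. No sequences were used. Of the tested pairs, 1 is counted with the others but its genes are not reported here.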

Additional observations from a re-analysis of the deposited data

How the results depend on the processing

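Called counts moved with the processing. The 37 named members gave 777 values in alternatives: 71 gained a call and 59 lost one. The 9 called genes kept the call in 130 of 189 values (RpS21 in 8 of 21, RpL7A and RpS29 in 10 of 21 each), and the 28 others stayed uncalled in 517 of 588. Of these values, 50 in 16 genes changed sign without a call in either fit, by at most 0.24 on the log2 scale, and no called value changed sign. Counts below are of genes called higher and lower among ribosomal protein genes, with the large and small subunit after them.

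Upper-quartile scaling gave 4 and 4 (small subunit 2 and 2, elongation list 2 higher). Library totals alone gave 16 and 3 (large subunit 10 higher, small subunit 6 and 1, elongation list 3 higher, mitochondrial list 17 higher). RLE scaling left the members at 2 and 7, with 0 elongation genes higher and 2 mitochondrial genes lower; TMM without the mitochondrially encoded genes also gave 0 elongation genes higher. No count filter gave 5 higher (small subunit 2), beside 10.9% of all genes. A minimum count of 50 gave 1 higher in the small subunit, beside 14.1% of all genes. The deposited effective length offset gave 5 higher (large subunit 5 and 6, elongation list 0 higher, mitochondrial list 5 higher), beside 9.59% of all genes. The offset implied by counts and TPM gave 4 higher (large subunit 4 and 6, elongation list 0 higher, mitochondrial list 2 lower), beside 10.7% of all genes. Removing the trend with gene length gave 0 and 28 (large subunit 0 and 15, small subunit 13 lower, elongation list 0 and 3, TOR list 7 lower, mitochondrial list 5 and 7), with 0 members higher by edgeR and 28 of 85 lower beside 18.7% of all genes. DESeq2 gave 5 and 11 (large subunit 6 lower, small subunit 2 higher, elongation list 2 higher, mitochondrial list 2 lower). Limma on log2(TPM + 1) gave 9 and 1 (large subunit 6 and 1, small subunit 3 and 0, elongation list 2 and 0, mitochondrial list 2 lower), and with 0.1 added it gave 9 and 2 (large subunit 6 higher, small subunit 3 and 0, elongation list 2 and 0, mitochondrial list 2 lower). Scaling to the ribosomal protein genes gave 0 and 1 (large subunit 0 and 1, small subunit 0 lower, elongation list 0 and 0, TOR list 0 and 1, mitochondrial list 1 and 0). Without both libraries that stood apart the counts were 24 and 21 (large subunit 13 and 11, small subunit 11 and 10, elongation list 3 and 4, TOR list 13 lower, mitochondrial list 21 and 4). The cause of these moves was not tested.

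With the replicate number as a block, 3 members were called higher and 5 lower (small subunit 1 and 2, elongation list 0 higher, TOR list 3 higher), and over all genes 744 and 742 were called. The numbers share only a label here.

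Leaving out each library in turn moved the members between 0 and 19 higher and between 3 and 18 lower. Over all genes the shares ran from 5.4% to 16.9% higher and from 6.62% to 17% lower. The large subunit ranged from 0 to 10 higher and 2 to 8 lower, and the small subunit from 0 to 9 higher and 1 to 10 lower. The extremes were 2 fits. Without MEK F53S replicate 2, 19 of 85 members were higher and 4 lower, beside 10.9% and 13.9% of all genes. Without wild-type MEK replicate 1, 1 of 86 was higher and 18 lower, beside 16.9% and 17% of all genes. The elongation list ranged from 0 to 3 higher and 1 to 3 lower, the TOR list from 1 to 6 and 2 to 9, and the mitochondrial list from 4 to 12 and 1 to 5.

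The share of ribosomal protein transcripts differed by 0.0516 percentage points in counts and by -1.13 points in TPM. The RpS14a to RpS14b log2 difference of -0.02 became 0.0478 by CPM and ranged from -0.12 to 0.0756 when a library was left out. The RpS15Aa to RpS15Ab difference of -0.04 ranged from -0.12 to 0.0625, and was 0.0170 without wild-type MEK replicate 1. Pairs with RpL34, RpL24, RpL7 and RpLP0 kept their direction in each of these settings, with RpL34 at -0.12 without wild-type MEK replicate 2. Depth limits the 7 genes under the count filter, none of which had more than 15 counts in a library.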
